A study of Mus musculus with 8 samples.

Results

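The hepatic acute phase genes described here are 10 genes whose products the liver secretes in inflammation, taken by symbol from the 33696 genes of each library: the serum amyloid A genes Saa1, Saa2 and Saa3, the haem and haemoglobin scavengers Hp and Hpx, the hepcidin gene Hamp, the lipocalin Lcn2, the orosomucoids Orm1 and Orm2, and the fibrinogen chain Fgb. Their transcripts were counted as unique molecular identifiers (UMIs, 1 per captured mRNA molecule) by droplet single-cell RNA sequencing of tumour-bearing mouse livers. All mice were male C57BL/6, 8 to 10 weeks old, and received 30 µg of plasmid by hydrodynamic tail vein injection. The plasmids carried CRISPR-Cas9 with a guide against Trp53, a c-Myc transposon and the SB13 transposase, and livers were taken 4 to 5 weeks later. The 3 control libraries came from Ncr1WT, Nr4a1fl/fl mice without Cre, and the 3 knockout libraries from Ncr1iCre, Nr4a1fl/fl mice, so both groups carried the floxed Nr4a1 allele and the same tumour plasmids. Control library 3 pooled 3 mice and knockout library 3 pooled 2 mice. The labels call libraries 1 and 2 biological replicates without saying which animals they hold, so p-values measure only the spread between these libraries. Expression of Ncr1, and with it of the Cre, is known from natural killer cells and type 1 innate lymphoid cells, not from hepatocytes.

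In the acute phase response, interleukin 6, interleukin 1 and related cytokines made by immune and stromal cells act on hepatocytes, where the transcription factors STAT3, C/EBP and NF-kB raise the genes of secreted defence proteins. Hepatocytes are the main source of most of these proteins. Saa3 is known as the serum amyloid A that macrophages and other non-hepatic cells also make, Lcn2 and Hp are also granule proteins of neutrophils, and Hamp is set by iron through bone morphogenetic protein signalling as well as by interleukin 6.

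The upstream sequences of 4 members are shown because these genes behaved differently in the cells below: Saa1, Saa2 and Hamp were higher in the other hepatocytes and Saa3 in the tumour-type hepatocytes. Each is the 250 bases before the gene's start, 5′ to 3′ on the gene's strand, from RefSeq on GRCm38.p6, a build other than the GRCm39 named in the submitters' processing notes. Capitals mark matches on either strand to a C/EBP motif (TTGCNNAA), a STAT motif (TTCNNNGAA) or an NF-kB motif (GGGNNNNNCC). Saa1 lies at chr7:46742981-46743230 on the minus strand, Saa2 at chr7:46751583-46751832 on the plus strand, Saa3 at chr7:46715677-46715926 on the minus strand and Hamp at chr7:30944030-30944279 on the minus strand.
Saa1: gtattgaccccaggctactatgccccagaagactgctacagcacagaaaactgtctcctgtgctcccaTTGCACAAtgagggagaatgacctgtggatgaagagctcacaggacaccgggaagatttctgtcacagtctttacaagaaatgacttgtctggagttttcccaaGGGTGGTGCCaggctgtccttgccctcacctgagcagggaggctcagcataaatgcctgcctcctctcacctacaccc
Saa2: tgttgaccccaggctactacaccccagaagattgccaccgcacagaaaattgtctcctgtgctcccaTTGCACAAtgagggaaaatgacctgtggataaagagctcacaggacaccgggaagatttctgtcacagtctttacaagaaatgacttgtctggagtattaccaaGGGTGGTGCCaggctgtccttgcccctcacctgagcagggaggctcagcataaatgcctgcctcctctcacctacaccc
Saa3: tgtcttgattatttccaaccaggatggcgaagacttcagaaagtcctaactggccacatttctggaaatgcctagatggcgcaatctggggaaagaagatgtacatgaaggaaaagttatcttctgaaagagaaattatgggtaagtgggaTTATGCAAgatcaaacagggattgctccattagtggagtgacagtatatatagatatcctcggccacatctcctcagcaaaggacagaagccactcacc
Hamp: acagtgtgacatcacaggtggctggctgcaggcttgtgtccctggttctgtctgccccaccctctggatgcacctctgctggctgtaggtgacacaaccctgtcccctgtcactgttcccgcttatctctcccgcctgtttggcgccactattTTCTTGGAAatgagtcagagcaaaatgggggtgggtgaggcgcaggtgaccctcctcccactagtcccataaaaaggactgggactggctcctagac

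A promoter entry was found for 8 of the 10 members, all but Hp and Orm1. The C/EBP letters occurred in 7 of the 8 windows, all but that of Hamp, against 9.6% of 32851 windows of the same length. The STAT letters occurred in the windows of Hamp (bases -97 to -89 from the start) and Fgb (-162 to -154), against 7.0% of windows. The NF-kB letters occurred in the windows of Saa1, Saa2 and Lcn2, against 45.8% of windows, and no matches overlapped each other. The windows of Saa1 and Saa2 were identical in 94.8% of aligned columns, and those of Saa1 and Saa3 in 50.2%. The longest coding transcripts of Saa1 and Saa2 (GENCODE M21) were identical in 87.5% of aligned columns and those of Orm1 and Orm2 in 91.0%, so how reads were divided between these pairs is uncertain.

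Hepatocytes were taken from 2 clusters made without the members and without 30 other positive acute phase genes, and only cells with no UMI of the leukocyte gene Ptprc and at least 2000 UMIs were kept. The tumour-type cluster was led by Fabp6, H19, Bex1 and the fetal protein gene Afp, and met 9 of 14 tumour markers and 13 of 16 hepatocyte markers. It also met 6 of 15 markers of non-tumour hepatocytes. The other cluster met 11 of 15 markers of non-tumour hepatocytes, 0 of 14 tumour markers and 14 of 16 hepatocyte markers. Each label follows the larger share of markers met, and Hamp was itself among the leading genes of the other cluster. Control libraries 1 to 3 gave 400, 43 and 196 tumour-type hepatocytes and knockout libraries 1 to 3 gave 136, 10 and 533, 1318 of the 20108 cells kept in all. The other hepatocytes numbered 28, 1 and 115 in the controls and 2, 0 and 99 in the knockouts. Tumour-type cells were deep, with medians of 5283 to 95456 UMIs per cell, and summed to 397454 to 38494705 UMIs per library. Both libraries numbered 2 were poor: before filtering, the median cell had 27.9% mitochondrial UMIs in control 2 and 75.1% in knockout 2, against 6.7 to 10.0% in the other 4. No hepatocyte barcode was shared between libraries. In natural killer-like cells Nr4a1 itself measured 74.3, 40.5 and 55.6 counts per 1000000 UMIs (CPM) in controls 1 to 3. Knockouts 1 to 3 measured 125, 8.18 and 68.5 CPM, overlapping with the controls. The knockout 2 value comes from 36 cells, against 98 to 566 in the other libraries. 3′ counts can fall outside the deleted part and so do not check the deletion.

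In tumour-type hepatocytes the members spanned more than 3 orders of magnitude, from Fgb to Orm2, and no member separated the 2 groups. Fgb, the fibrinogen beta chain of the blood clot, was the highest by mean: 815, 697 and 872 CPM in controls 1 to 3 and 802, 1051 and 761 CPM in knockouts 1 to 3. Its groups overlapped, and knockout 2, with 10 cells, held the highest value, though below its Hp level. Hpx, hemopexin, which binds free haem, measured 294, 244 and 271 CPM in the controls and 287, 575 and 292 CPM in the knockouts. Hp, haptoglobin, which binds free haemoglobin, measured 135, 169 and 346 CPM in the controls and 239, 1146 and 248 CPM in the knockouts. For both scavengers 1 library, knockout 2, stood above the other 5, whose values overlapped between groups.

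The serum amyloid A genes differed from one another in tumour-type hepatocytes. Saa3 measured 156, 47.8 and 129 CPM in the controls and 174, 45.3 and 153 CPM in the knockouts. It was low in both libraries numbered 2 and between 129 and 174 CPM in the other 4, of either genotype. Saa1, a circulating form carried on high density lipoprotein, measured 6.64, 7.55 and 3.87 CPM in the controls and 8.75, 0 and 6.99 CPM in the knockouts. Its close copy Saa2 measured 3.19, 5.03 and 0.352 CPM in the controls and 2.63, 0 and 1.25 CPM in the knockouts. The count of 0 for both in knockout 2 stood against 485300 UMIs, which allows up to 6.18 CPM. That limit lies below 4 of the other 5 libraries for Saa1 and above all 5 for Saa2, so a lower Saa2 level in knockout 2 was not detectable at this depth.

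Hamp encodes hepcidin, the hormone that closes the iron exporter ferroportin. In tumour-type hepatocytes it measured 44.1, 0 and 15.4 CPM in the controls and 52.0, 0 and 43.5 CPM in the knockouts. Both zeros lay in the libraries numbered 2, where a count of 0 allows up to 7.55 CPM in control 2 and 6.18 CPM in knockout 2. The other values overlapped. Lcn2, which binds the iron carriers of bacteria, measured 7.47, 17.6 and 12.8 CPM in the controls and 9.23, 98.9 and 16.3 CPM in the knockouts, again with knockout 2 alone on top. Orm1, an abundant plasma carrier protein, measured 16.9, 62.9 and 25.2 CPM in the controls and 15.8, 45.3 and 42.0 CPM in the knockouts. Its copy Orm2 measured at most 0.544 CPM, with counts of 0 in control 2 and knockout 2 that allow up to 7.55 and 6.18 CPM.

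**Figure D1:**
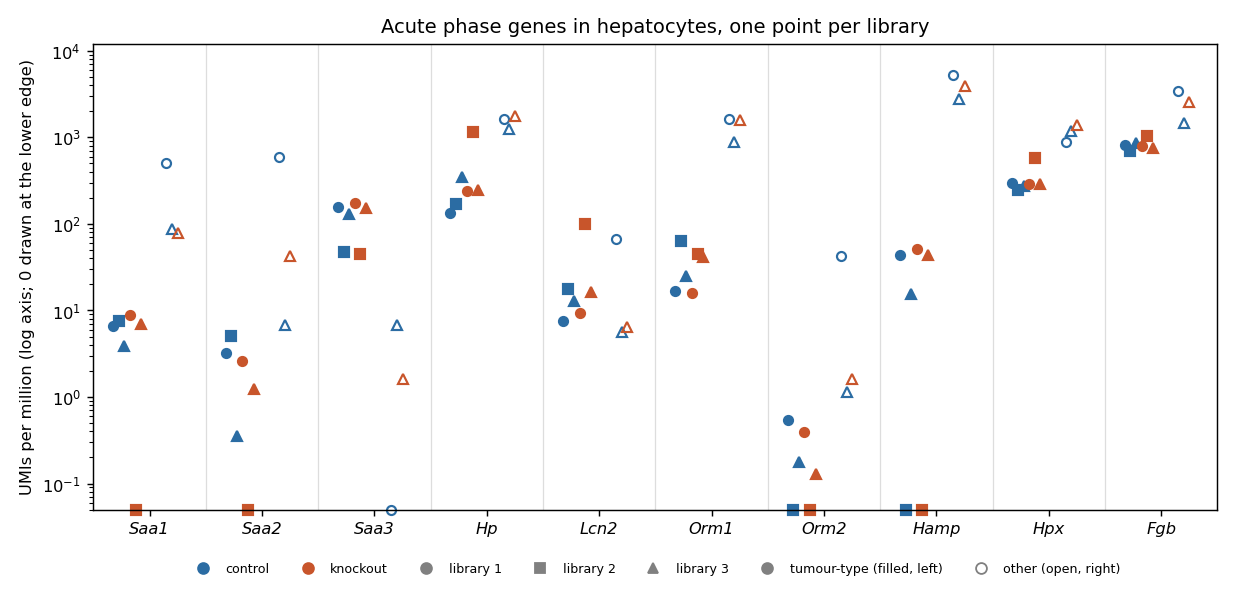
Level of each acute phase gene in CPM (log axis, zeros at the lower edge) in tumour-type hepatocytes (filled, left) and other hepatocytes (open, right), 1 point per library, coloured by genotype and shaped by library number. Control and knockout points overlap for all 10 genes in tumour-type cells, Saa3 is the gene whose open points lie below its filled ones, and knockout 2 is the top filled point for Hp (1146), Lcn2 (98.9) and Hpx (575).

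Ordered by mean level over the 6 libraries (± SD), tumour-type hepatocytes held Fgb at 833 ± 122 CPM, Hp at 380 ± 382 CPM, Hpx at 327 ± 122.7 CPM and Saa3 at 118 ± 56.8 CPM. Below these came Orm1 at 34.7 ± 18.6 CPM, Lcn2 at 27.0 ± 35.4 CPM, Hamp at 25.8 ± 23.6 CPM, Saa1 at 5.63 ± 3.20 CPM, Saa2 at 2.07 ± 1.91 CPM and Orm2 at 0.208 ± 0.220 CPM. Hp and Hpx, and the run of Orm1, Lcn2 and Hamp, differed by less than their spread. The counts come from transcript ends, so these levels do not scale with gene length, but how well each gene's end is captured may differ. Barcodes of at most 100 UMIs, which hold free RNA, gave the makeup of free RNA in the 2 libraries numbered 3: 4.72 and 9.98 CPM of Saa1, 93.1 and 168 CPM of Hamp, and 68.1 and 96.5 CPM of Orm1, in the control and the knockout library in that order. Summed levels in tumour-type hepatocytes of the same libraries lay below these free RNA levels for Saa1, Saa2, Orm1, Orm2 and Hamp. They lay above them in both libraries for Saa3 (free RNA 57.7 and 122 CPM) and Fgb (373 and 573 CPM), and on different sides in the 2 libraries for Hp, Hpx and Lcn2.

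The comparison of knockout with control asks whether deleting Nr4a1 in Ncr1-expressing cells was accompanied by a changed acute phase programme in the tumour cells. No member passed the test in tumour-type hepatocytes (edgeR quasi-likelihood, Benjamini-Hochberg over 12699 genes, threshold 0.05), in which 0.00% of all genes passed; 122 genes had an unadjusted p under 0.05, none of them a member, and DESeq2 called 0. The replicate block, which compares libraries of equal number, called 3 genes and no member. The largest fitted differences were those of Lcn2, with a log2 fold change of 1.34 (SE 0.75, n = 3 libraries per group, edgeR adjusted p = 1.00), and Hp, with 1.24 (SE 0.57, edgeR unadjusted p = 0.0503, adjusted p = 1.00). Both rested on knockout 2: without it the log2 fold change of Lcn2 was 0.28 and that of Hp 0.12, and without both libraries numbered 2 that of Hp was -0.014. Albumin (Alb), a negative acute phase gene, followed the same course, with a log2 fold change of 0.80 (SE 0.43) and of -0.060 without the libraries numbered 2. Tumour-type cells of knockout 2 also held 8.68% mitochondrial UMIs, against 3.17 to 5.66% in the other libraries; its part in the result was not tested.

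The other members differed by less. Log2 fold changes of knockout over control in tumour-type hepatocytes were 0.61 for Hamp (SE 0.58), 0.48 for Hpx (SE 0.26), 0.38 for Saa1 (SE 0.44) and 0.31 for Orm1 (SE 0.49). They were 0.15 for Saa3 (SE 0.39), 0.12 for Fgb (SE 0.20) and -0.16 for Saa2 (SE 0.76), and Orm2 was too low to be tested. The 9 members tested, of 10, had a median log2 fold change of 0.38 with 8 above 0, beside a median of -0.00 and 49.3% above 0 over all genes. Members share their libraries, so this count is a description with no test. Of 15 negative acute phase genes, 12 were also above 0, with a median of 0.32. Leaving out 1 library at a time, the values of Saa2, Saa3, Orm1 and Fgb each crossed 0. Complete separation of the 3 control and 3 knockout libraries occurred for none of the 10 members and for 3.26% of all genes tested.

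Over both kinds of hepatocyte together no member passed the test (edgeR, 12780 genes, 0.00% called; 109 genes with an unadjusted p under 0.05; DESeq2 called 0 and the replicate block 5, no member). The largest differences there were a log2 fold change of -4.78 for Saa2 (SE 1.75, edgeR unadjusted p = 0.0194, adjusted p = 1.00) and -2.31 for Saa1 (SE 1.07, adjusted p = 1.00). Both rested on control 2, where 98.0% of 101 Saa2 UMIs and 95.3% of 64 Saa1 UMIs came from the 1 other hepatocyte of that library. Without control 2 the log2 fold change of Saa2 was -0.81 and that of Saa1 -0.22. That cell had 2610 UMIs, no Ptprc UMI and 1 Alb UMI, and 6.13% of its UMIs were Saa1 or Saa2; it also held 21 UMIs of Lcn2, 51 of Orm1 and 46 of Hamp. It was 1 of 2 cells of the other cluster, both named after their values were seen, in which Saa1 and Saa2 made up at least 1% of UMIs; the second, in knockout 3, had 1132 UMIs and 12 of Saa2.

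Wider acute phase and signalling lists gave the same count of calls. None of 27 tested other positive acute phase genes, 15 negative acute phase genes, 20 cytokine receptors and transducers, 14 genes of hepcidin control, 3 receptors that bind or clear the products and 1 ligand passed the test in hepatocytes; their median log2 fold changes were 0.06, 0.09, 0.03, -0.06, 0.15 and -0.11, beside -0.01 over all genes. The genes with the smallest p in these lists were Serpina3m, a serine protease inhibitor, with a log2 fold change of -1.35 (SE 0.50), and Socs3, a feedback inhibitor of the interleukin 6 receptor, with -1.499 (SE 0.62). Nfkbia, an inhibitor of NF-kB, followed with -0.57 (SE 0.24), and all 3 had an edgeR adjusted p = 1.00. Agt, the angiotensin precursor, had a log2 fold change of 0.61 (SE 0.34), and the lipoprotein genes Apoa1 and Apoc3 had 0.50 (SE 0.36) and 0.42 (SE 0.40). The iron sensor gene Tfr2 had -0.29 (SE 0.22) and the signal transducer Smad1 0.21 (SE 0.19). Scarb1, a lipoprotein receptor that also binds serum amyloid A, had 0.16 (SE 0.20), Lrp1, a receptor that clears hemopexin-haem, 0.15 (SE 0.34), and the cytokine gene Ctf1 -0.11 (SE 0.55).

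Most members also differed within libraries, between tumour-type and other hepatocytes. This contrast is given as a description with no test, since the 2 classes were made by clustering the same cells. It uses control 1, control 3 and knockout 3, the libraries with at least 10 cells of both, and log2 differences with 1 CPM added. Of the 10 members, 8 were higher in the other hepatocytes in all 3 libraries (21.2% of 9295 genes were), Saa3 was higher in the tumour-type cells in all 3 (56.5% of genes were), and Lcn2 went both ways. The 8 include Orm2, which had 1 UMI in the other hepatocytes of control 3 and 1 in those of knockout 3. Sums of other hepatocytes are small, and these counts include genes with 0 UMIs there, whose direction at low levels rests on the added 1 CPM.

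Hamp showed the widest difference. It measured 5295, 2768 and 3926 CPM in the other hepatocytes of control 1, control 3 and knockout 3, against 44.1, 15.4 and 43.5 CPM in their tumour-type cells. The mean log2 difference was 6.91 ± 0.47 (SD, n = 3), and each library's other cells lay 90.2- to 180-fold above its tumour-type cells. Orm1 followed with 1614, 878 and 1584 CPM in the other hepatocytes and a mean log2 difference of 5.59 ± 0.79. For scale, Alb measured 17203, 16202 and 18236 CPM there and differed by 4.90 ± 0.52.

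Saa1 measured 502, 86.7 and 79.2 CPM in the other hepatocytes of control 1, control 3 and knockout 3, a mean log2 difference of 4.51 ± 1.39. Saa2 measured 598, 6.85 and 42.0 CPM there, with a mean log2 difference of 4.65 ± 2.34. Control 1 was far above the other 2 libraries for both genes, and few cells carried them. In control 1 Saa1 was found in 7 of 28 cells, and 1 cell held 41 of its 83 UMIs; in control 3 it was found in 10 of 115 cells, and 1 cell held 56 of 76 UMIs; in knockout 3 it was found in 19 of 99 cells, and 1 cell held 19 of 49 UMIs. Saa2 was found in 3, 2 and 9 of these cells. The other hepatocytes of control 1 also differed in their markers, which summed to 8468 CPM over the 15 non-tumour genes, against 39892 CPM in control 3 and 38580 CPM in knockout 3; the part of this in the result was not tested.

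Saa3 ran the other way. It measured 0, 6.85 and 1.62 CPM in the other hepatocytes of control 1, control 3 and knockout 3, from 0, 6 and 1 UMIs, against 156, 129 and 153 CPM in the tumour-type cells. In control 1 the tumour-type level was at least 8.60-fold higher, taking 3 UMIs as the limit of a count of 0. In control 3 it was 18.9-fold higher (exact 95% interval for counting error only, 8.67 to 51.5) and in knockout 3 it was 94.5-fold higher (17.0 to 3734). Macrophage markers in the tumour-type cells summed to 0 to 2.34 CPM over the 10 markers in each library. Of these markers, 4, 10 and 2 were at 0 in controls 1 to 3 and 8, 9 and 0 in knockouts 1 to 3. Saa3 measured 45.3 to 174 CPM in the same cells, and a part of macrophage RNA in it was not tested.

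The scavengers and the clotting chain differed less between the 2 kinds of hepatocyte. Hp measured 1650, 1263 and 1788 CPM in the other hepatocytes and differed by 2.77 ± 0.87 on the log2 scale. Hpx measured 876, 1171 and 1395 CPM and differed by 1.98 ± 0.36. Fgb measured 3421, 1480 and 2589 CPM and differed by 1.53 ± 0.68. All 3 were also well represented in tumour-type cells, unlike Hamp and Orm1. Orm2 measured 42.3, 1.14 and 1.62 CPM, the last 2 from 1 UMI each, and Lcn2 measured 66.5, 5.71 and 6.47 CPM, above its tumour-type cells in control 1. The Lcn2 values of control 3 and knockout 3 rest on 5 and 4 UMIs, and the intervals of tumour-type over other hepatocytes, 0.945 to 6.97 and 0.979 to 9.27 for counting error only, include no difference. The intervals of Orm2, other over tumour-type hepatocytes, were 0.124 to 80.8 in control 3 and 0.263 to 111 in knockout 3. They also include no difference.

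**Figure D2:**
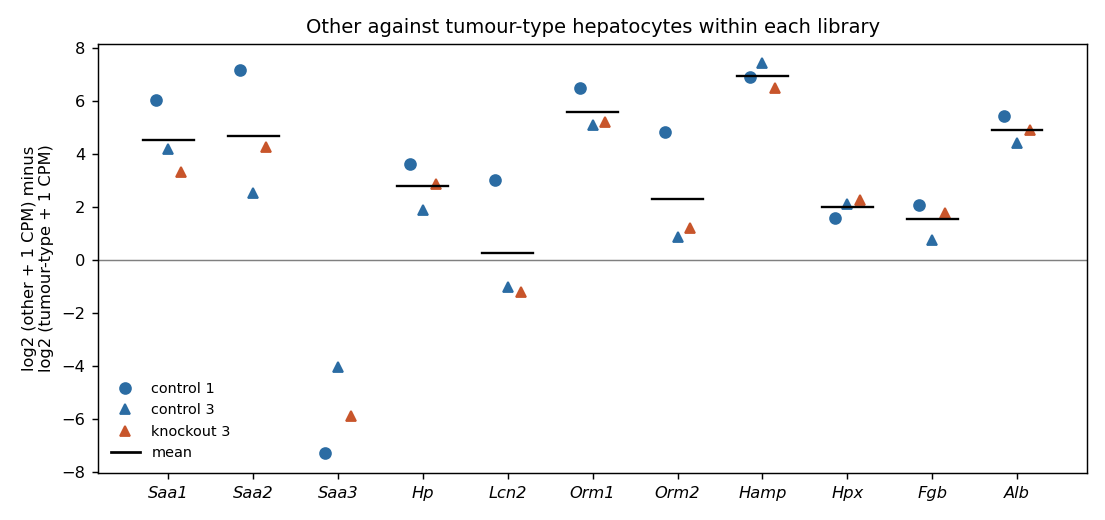
Difference in level of each acute phase gene and of Alb between other and tumour-type hepatocytes of the same library, on the log2 scale with 1 CPM added; points are libraries and bars their mean, with no bar for Saa3, which had 0 UMIs in the other hepatocytes of control 1. Hamp sits highest, at a mean of 6.91, Saa3 lies below 0 in all 3 libraries, where its control 1 point depends on the added 1 CPM, and Lcn2 is on both sides of 0.

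Single deep cells weighed on the other hepatocytes. The deepest held 18.6% of all UMIs of that class in control 1, with 440 of its 876 Hamp UMIs and 345 of its 566 Fgb UMIs, and 10.9% and 8.46% in control 3 and knockout 3. With each cell weighted equally, 6 of 10 members were higher in the other hepatocytes in all 3 libraries: Fgb reversed in control 3, with a log2 difference of -0.41, and Orm2 in knockout 3, with -0.12. Knockout 3 was the 1 knockout library with at least 10 other hepatocytes, so the groups were not tested in that class. It lay inside the range of control 1 and control 3 for 7 of the 10 members and outside it for Saa1, Hp and Hpx, where 56.5% of 7299 genes lay outside.

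The wider lists showed where the members stood among their kind. Of the other positive acute phase genes, 25 of 30 reached 10 CPM, 14 were higher in the other hepatocytes in all 3 libraries and 4 were higher in the tumour-type cells, with a median log2 difference of 0.98; over all genes the median was -0.90, -0.62 and -0.80 in control 1, control 3 and knockout 3. The highest were the serine protease inhibitor genes Serpina3k (9.20 ± 0.14), Serpina3m (5.33 ± 0.43) and Serpina3n (4.71 ± 0.78) and the glycoprotein gene Lrg1 (4.35 ± 0.50). The 4 in the direction of Saa3 were the metallothioneins Mt2 (-3.72 ± 1.81) and Mt1 (-3.01 ± 1.75), A2m, a broad protease inhibitor, and the zinc and iron importer Slc39a14. The last 2 had 0 UMIs in the other hepatocytes of control 1; in control 3 and knockout 3 A2m differed by -5.23 and -4.28, from 1 UMI each, and Slc39a14 by -0.53 and -0.33. Genes that fall in the acute phase were also higher in the other hepatocytes, 13 of 15 with a median of 2.44, led by Igf1 (5.17 ± 0.59), with Serpina6, the corticosteroid carrier, the other way (-2.38 ± 1.63).

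Of 17 cytokine receptors and transducers at 10 CPM, 2 were higher in the other hepatocytes in all 3 libraries, the leukaemia inhibitory factor receptor Lifr (1.57 ± 0.54) and Nfkbia (0.88 ± 0.24), and 7 were higher in the tumour-type cells, beside 21.2% and 56.5% of all genes. The list's median of -0.37 lay above the medians of all genes given before. The 7 included Il6st, the signalling chain of the interleukin 6 receptor (-1.40 ± 0.69), from 1, 10 and 3 UMIs in the other hepatocytes. They also included its binding chain Il6ra, which had 0 UMIs there in control 1 and differed by -0.20 and -0.19 in control 3 and knockout 3. Of 13 genes of hepcidin control, Id1, a target of bone morphogenetic proteins (1.33 ± 0.20), and Hfe (0.81 ± 0.77) were higher with Hamp in the other hepatocytes. The 6 higher in the tumour-type cells, beside 56.5% of all genes, included the receptor Bmpr1a (-2.002 ± 0.72), and the list's median was -1.11, beside -0.90, -0.62 and -0.80 over all genes in the 3 libraries.

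The share of cells that carried a member separated its level from its spread over cells. After each hepatocyte was thinned to 2000 UMIs, Hamp was found in 3.12 ± 2.75% of tumour-type cells (SD, n = 6 libraries) and 81.4 ± 2.86% of other hepatocytes (n = 3). Orm1 was found in 4.79 ± 3.28% and 75.3 ± 10.7%, and Hp in 24.7 ± 6.15% and 63.4 ± 13.5%. At this depth these 3 members were found in most other hepatocytes and in a minority of tumour-type cells. Fgb was found in 70.1 ± 3.44% and 70.3 ± 16.5%, and Hpx in 39.2 ± 11.9% and 40.6 ± 14.9%, close to equal at this depth. Saa3 was found in 15.2 ± 5.56% of tumour-type cells. In T-like cells, which should lack these genes, with a median of 1273 to 4948 UMIs per library, Saa3 was found in 0 to 3.20% and Hp in 0 to 11.9% of cells. Without thinning, the tumour-type shares were 54.9% for Saa3, 61.2% for Hp, 94.7% for Fgb, 85.9% for Hpx, 25.5% for Orm1 and 14.4% for Hamp.

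Deep tumour-type cells showed how unevenly the members were spread. In the 4 libraries with enough cells of at least 20000 UMIs (372 cells in control 1, 174 in control 3, 115 in knockout 1 and 415 in knockout 3), Fgb was found in 99.1 to 100% of cells and Hpx in 95.7 to 99.2%. Hp was found in 58.1 to 84.5% and Saa3 in 59.1 to 75.3%, followed by Orm1, Hamp and Lcn2, while Saa1 was found in 5.17 to 10.4%. The median deep cell held 16.5 to 31.5 CPM of Saa3, and the highest cell of each library held 1226 to 7522 CPM. The top 10% of cells carried 51.7 to 74.0% of the summed Saa3 level and 44.2 to 69.1% of that of Hp, against 21.5 to 28.1% for Fgb. Hamp was found in 20.4 to 25.2% of deep cells and had 91.8 to 97.3% of its level in the top 10%.

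**Figure D3:**
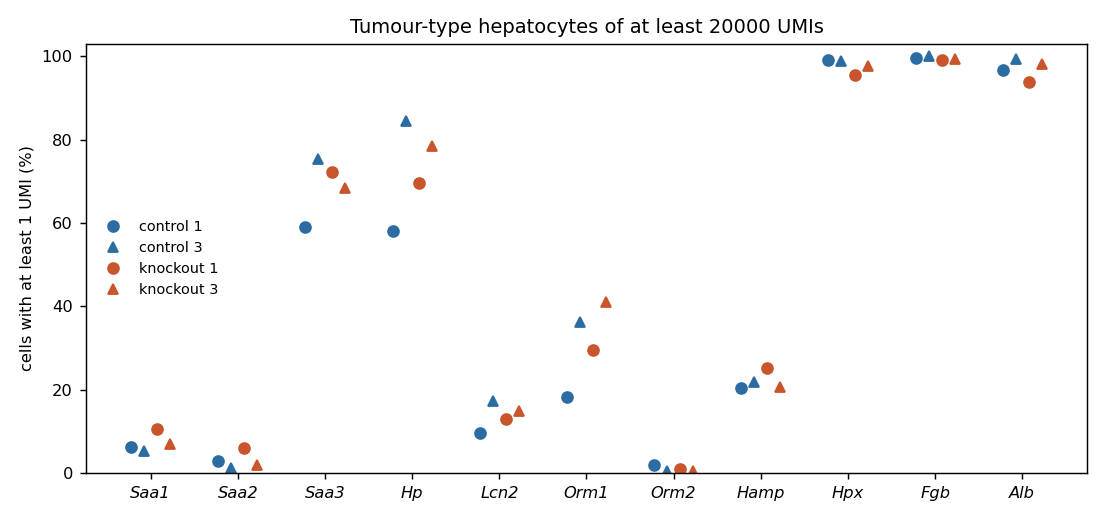
Share of tumour-type hepatocytes of at least 20000 UMIs with at least 1 UMI of each acute phase gene and of Alb, 1 point per library. Fgb and Hpx lie above 95% in all 4 libraries, Saa3 and Hp between 58.1 and 84.5%, and Saa1 and Saa2 below 11%.

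Within these deep cells Saa3 and Hp tended to be high in the same cells. The Pearson correlation of their log levels across cells was 0.41, 0.58, 0.67 and 0.58 in control 1, control 3, knockout 1 and knockout 3, a mean of 0.56 over the libraries and one of the 2 highest of 55 pairs of members and Alb; the other, also at a mean of 0.56, was Hpx with Alb. Hp with Hpx came next, at 0.45 to 0.59, and lower pairs included Saa1 with Lcn2 at 0.39 to 0.49 and Saa3 with Hpx at 0.31 to 0.49. Cells share their library and its free RNA, and the correlation of Saa3 with depth (log2 UMIs) was 0.01 to 0.08. In cells of at least 50000 UMIs the mean for Saa3 with Hp was 0.55. Saa1 with its copy Saa2 ranged from -0.02 in control 3 to 0.83 in knockout 1. Few cells carried Saa2: it was found in 1.15% of the deep cells of control 3 and 6.09% of those of knockout 1.

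Outside hepatocytes the members were compared over 17 further classes, each named by its markers or its leading genes. Each class's ratio of a gene to Alb was divided by that of the empty barcodes in the same library, which could be done in both libraries numbered 3. This assumes that free RNA keeps the same ratio in all barcodes. The result differed by gene in T-like cells of control 3, which should lack these genes: 0.458 for Saa3 and 0.776 for Hamp. In 5 pairs of member and class of the 160 the ratio was over 5 times that of empty barcodes in both libraries (40.8% of all gene and class pairs were). These were Lcn2 in neutrophil-like cells (156- and 184-fold in control 3 and knockout 3), Saa3 in macrophage-like cells (77.0- and 73.0-fold), Hp in neutrophil-like cells (10.3- and 21.1-fold), Hp in monocyte-like cells (9.26- and 21.1-fold) and Lcn2 in the cluster led by Col1a1 and Acta2 (13.1- and 7.99-fold). The last came from 12 and 1 UMIs.

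Hp was high in blood-derived cells. In monocyte-like cells it measured 639, 352 and 627 CPM in controls 1 to 3 and 631, 795 and 657 CPM in knockouts 1 to 3, above the tumour-type hepatocytes of the same library in 5 of the 6 libraries. In neutrophil-like cells it measured 751, 1237 and 1280 CPM in the controls and 248, 347 and 876 CPM in the knockouts. The control and knockout values overlapped in both classes. In neutrophil-like cells the log2 fold change of knockout over control was -1.09 (SE 0.46, edgeR unadjusted p = 0.0368, adjusted p = 0.793 over 1579 genes, 0.00% called), and with the replicate block it was -1.28 (adjusted p = 0.371). Libraries numbered 2 gave few of these cells, 44 and 14 monocyte-like and 33 and 17 neutrophil-like. Among the monocyte-like cells, 1 cell held 16 of the 21 Hp UMIs of control 2. In knockout 2, 1 such cell held 31 of 33.

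Lcn2 was by far highest in cells of the neutrophil lineage. The mixed cluster led by Camp and Ngp, genes of immature granulocytes, held 5431 CPM in control 1, 5836 CPM in knockout 1 and 11906 CPM in knockout 3, from 20 to 23 cells per library; Lcn2 was itself among this cluster's leading genes. Neutrophil-like cells held 1012, 936 and 888 CPM in the controls and 240, 1852 and 880 CPM in the knockouts, with overlap and a log2 fold change of 0.10 (SE 0.62). Tumour-type hepatocytes, at 27.0 ± 35.4 CPM, lay well below both. Orm1 in the Camp and Ngp cluster reached 119, 78.4 and 238 CPM, and Hp 886, 1024 and 1330 CPM, in control 1, knockout 1 and knockout 3.

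Saa3 in macrophage-like cells rested on few cells. It measured 6.88, 880 and 762 CPM in controls 1 to 3 and 4.73 and 517 CPM in knockouts 1 and 3. In control 3 a single cell held 991 of the 997 Saa3 UMIs; it had 34989 UMIs in all, 78 of the complement gene C1qb and 2 of Alb. In control 2 a single cell held all 30 UMIs. In knockout 3 the 566 Saa3 UMIs lay in 22 of 221 cells, the highest with 108 UMIs, and 8 of these cells held 524 of them. Without the highest cell of each library the levels were 3.52, 0 and 4.71 CPM in the controls and 2.37 and 425 CPM in the knockouts, so 1 library, knockout 3, kept a level above that of tumour-type hepatocytes. Outside hepatocytes 11 cells held at least 20 Saa3 UMIs, 8 of them macrophage-like cells of knockout 3 with at least 7 C1qb UMIs each and at most 10 Alb UMIs.

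**Figure D4:**
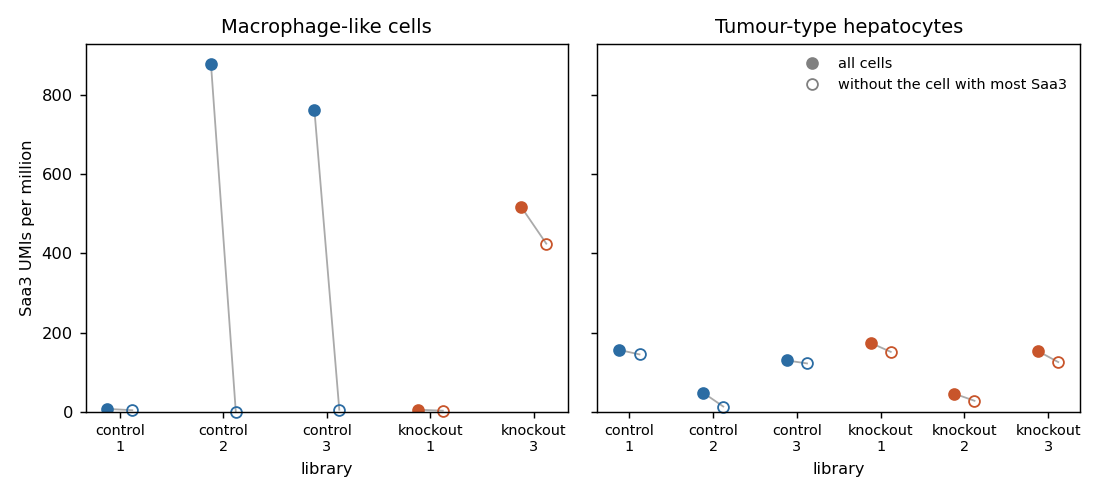
Saa3 in CPM by library in macrophage-like cells (left) and tumour-type hepatocytes (right), over all cells (filled) and without the cell with most Saa3 (open); knockout 2 had too few macrophage-like cells. Removing 1 cell takes macrophage-like cells from 880 to 0 in control 2 and from 762 to 4.71 in control 3, while knockout 3 stays at 425.

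The eleventh cell was monocyte-like, in knockout 2, with 41 Saa3, 31 Hp and 27 Lcn2 UMIs. It took the Saa3 level of that library's 14 monocyte-like cells from 30.4 to 1012 CPM and its Lcn2 level from 30.4 to 674 CPM. The fits of knockout over control in monocyte-like cells include that cell and gave log2 fold changes of 3.27 for Saa3 (SE 1.72) and 2.52 for Lcn2 (SE 1.40), neither past the test (edgeR adjusted p = 1.00 over 7469 genes, 0.00% called). Without knockout 2 the values were -0.13 for Saa3 and 0.56 for Lcn2. Cholangiocyte-like cells held Fgb at 1219, 440 and 272 CPM in control 1, control 3 and knockout 3, and Hp at 339, 314 and 14.8 CPM, the latter 119, 215 and 10.0 CPM without the highest cell. Hpx in those cells was 501, 10.6 and 27.2 CPM, high in 1 library.

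**Figure D5:**
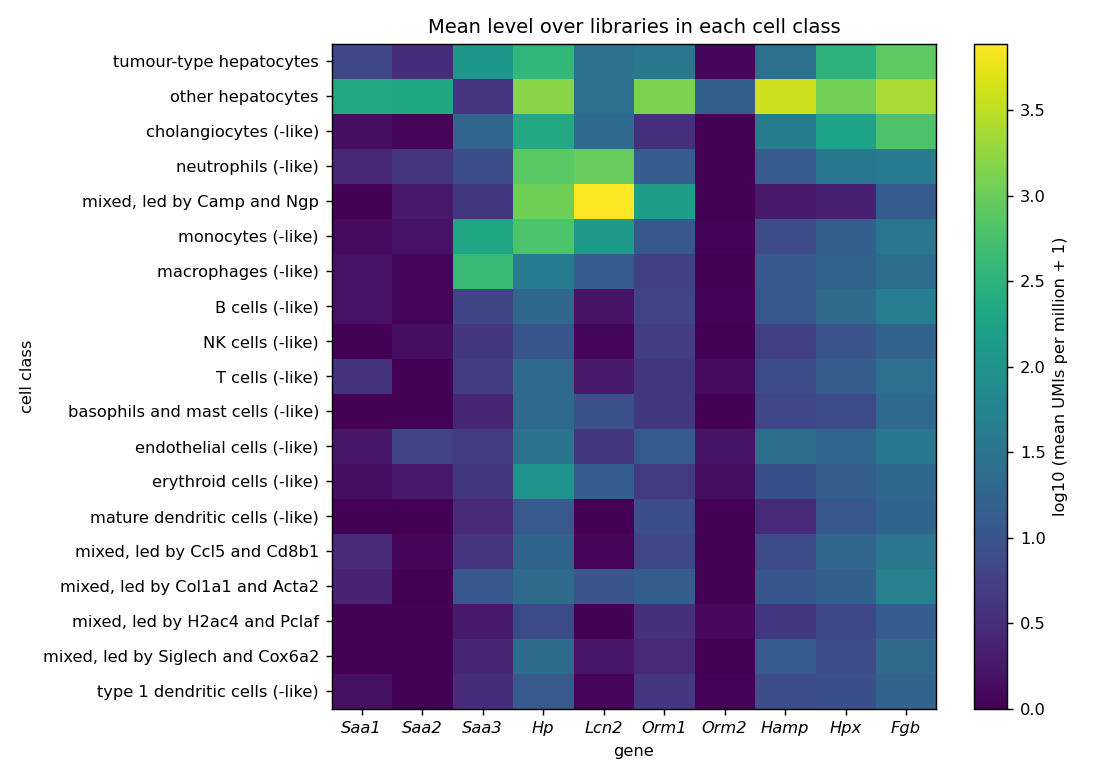
Mean level of the 10 acute phase genes over libraries in each cell class, coloured by log10 of the mean CPM plus 1. The other hepatocytes are the brightest row for Saa1, Saa2, Hp, Orm1, Orm2, Hamp, Hpx and Fgb, the Camp and Ngp cluster for Lcn2, and macrophage-like cells for Saa3, where 1 cell sets 2 of the 5 libraries.

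The only member to pass a test between genotypes in any setting run was Fgb in T-like cells, which should not make it. It measured 49.1, 13.7 and 56.8 CPM in controls 1 to 3 and 6.55, 0 and 27.7 CPM in knockouts 1 to 3, with overlap. The log2 fold change was -1.496 (SE 0.41, edgeR adjusted p = 1.00 over 9951 genes, 0.00% called). With the replicate block it was -1.57 (edgeR adjusted p = 1.47e-05, 0.227% of 10582 genes called), and without knockout 3 it was -2.86 (edgeR adjusted p = 1.73e-04, 0.456% of 8112 genes called). Alb fell beside it in both settings, with log2 fold changes of -1.67 with the block and -3.51 without knockout 3. In T-like cells the ratio of Fgb to Alb was 0.606 and 0.814 times that of empty barcodes in control 3 and knockout 3. This ratio could be taken only in the libraries numbered 3, and a part of free RNA in the fitted differences was not tested. The replicate block called no member in endothelial-like, monocyte-like, neutrophil-like or natural killer-like cells.

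The pathway cytokines Il6, Il1b, Osm and Tnf were each highest in a class other than the hepatocytes. Il6 was highest in basophil- and mast-like cells (401 ± 215 CPM, n = 5 libraries), Il1b in neutrophil-like cells (8569 ± 1859 CPM, n = 6) and Osm in neutrophil-like cells (708 ± 279 CPM). Neutrophil-like cells also had the most Tnf (354 ± 128 CPM). The receptor chain Il6ra was highest in monocyte-like cells (336 ± 125 CPM) and measured 12.6 ± 4.33 CPM in tumour-type hepatocytes, while Il6st was highest in endothelial-like cells (713 ± 169 CPM) and measured 21.0 ± 2.85 CPM in tumour-type hepatocytes. Of the receptors for the products, Cd163, the haptoglobin-haemoglobin receptor, was highest in macrophage-like cells (74.4 ± 139 CPM), as was the hepcidin target Slc40a1 (322 ± 61.1 CPM). Lrp1 was highest in monocyte-like cells (331 ± 181 CPM), close to macrophage-like cells (302 ± 49.96 CPM), and the formyl peptide receptors Fpr1 and Fpr2, which can bind serum amyloid A, in neutrophil-like cells (114 ± 22.7 and 94.2 ± 31.0 CPM). Scarb1 measured 61.1 ± 12.4 CPM in tumour-type and 17.9 ± 10.4 CPM in other hepatocytes.

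Across the 19 classes, each member was set beside the genes whose mean log level followed it most closely among 14853 genes. The closest were Gc for Fgb (Pearson r = 0.99, with its partner chain Fgg next at 0.98), Ahsg for Hpx (0.97), Cyp2f2 for Hamp (0.97), Mbl2 for Saa1 (0.95), Gm8883 for Saa2 (0.97), Gm4756 for Orm1 (0.92) and Gm49431 for Orm2 (0.99). For these members, and for Hp, the other hepatocytes were the highest class. Saa3 was most like Lpl (0.89), Lcn2 most like Gpr84 (0.91) and Hp most like Svip (0.89). The points share their libraries and their free RNA, and the value for Saa3 rests on the few macrophage-like cells described above. Those for Orm2 and Saa2 also rest on few UMIs or cells. Orm2 had 7, 1 and 1 UMIs in the other hepatocytes of control 1, control 3 and knockout 3. For Saa2, 1 cell held 52 of the 99 UMIs in those of control 1.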

How the data were processed

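The deposited files hold whole-number UMI counts per gene and barcode (10x 3′ v3.1 chemistry per the labels) from 6 mRNA libraries. Per the file headers, the authors' counts came from Cell Ranger 7.0.1 in libraries 1 and 2 of each group and from 9.0.1 in the third pair. The build GRCm39 and Cell Ranger 9.0.1 are named in the submitters' processing notes. Kept barcodes had 500 UMIs or more, 300 genes or more and no more than 20% mitochondrial UMIs; in the libraries numbered 3, deposited with all barcodes, 134 and 112 that matched free RNA were removed (10000 simulations, false discovery rate 0.001). Doublets were removed by score at a rate of 0.8% per 1000 cells, 0 to 799 per library, since the automatic threshold of Scrublet marked 0 to 4. That left 134 to 9195 cells and 887170 to 81297215 UMIs per library. Cells were clustered (scanpy 1.11.5, leidenalg 0.10.2, 24 clusters) without the members and the other positive acute phase genes; clusters that met over 0.8 times as many markers of a second class stayed mixed, a limit set after the clusters were seen.

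Counts were summed per library and class, classes with at least 10 cells were kept, and knockout was compared with control by edgeR 4.0.16 (TMM, filterByExpr, quasi-likelihood test, Benjamini-Hochberg) in R 4.3.3; a standard error is the absolute log2 fold change over the root of F. DESeq2 1.42.0, the replicate block, each library left out and other filters were alternatives. Same-numbered libraries deviated together in all 7 comparisons (r 0.13 to 0.48, each control library correlating best with the knockout library of its number). The main fits did not pair libraries by number. Only the replicate block, an alternative, did so. On simulated tumour-type counts over 12363 genes, 34.0% of 94 genes changed 2-fold and 87.9% of 99 changed 4-fold were called. So were 25 of the 12170 unchanged genes. Always named were the members and, of each list, genes passing in hepatocytes or else the 2 with the smallest p; genes in descriptions were named after their values were seen. The members and lists were chosen with earlier results of these data known. Counting intervals and the limits of a count of 0 (3 UMIs) cover counting error only.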

Additional observations from a re-analysis of the deposited data

How the results depend on the processing

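Both libraries numbered 2 held few hepatocytes (43 and 10 tumour-type cells), and other hepatocytes were few and shallow. Of 389 fold changes of named genes recomputed under the alternatives, 355 kept their direction and their side of the threshold, 30 turned sign and 4 passed the threshold; the cause of the changes below was not tested. Genes called between genotypes were 0 in each class; with the replicate block they were 5 in hepatocytes, 3 in tumour-type hepatocytes, 6 in endothelial-like, 32 in monocyte-like, 1 in neutrophil-like, 14 in natural killer-like and 24 in T-like cells, with 1 member called there, Fgb, and the block changed no other member's call. Taking hepatocytes cell by cell gave 6 genes (4117 tested, 1 knockout library assumed to vary like the others), DESeq2 gave 1 in natural killer-like cells and leaving out both libraries numbered 2 gave 2 there. Leaving out 1 library at a time gave 0 to 1 genes in tumour-type hepatocytes and in monocyte-like cells, 0 to 2 in endothelial-like and 0 to 37 in T-like cells, where 0 to 1 members were called. Members higher in tumour-type than in other hepatocytes in every library numbered 1 to 2 when 1 library was left out (Lcn2 joined Saa3 without control 1), and members found in over 50% of tumour-type cells numbered 4 without thinning in place of 1. Without both libraries numbered 2 the log2 fold changes that turned sign were those of Hp (-0.094) and Scarb1 (-0.038) in hepatocytes, Saa2 (0.081), Hp (-0.014), Fgb (-0.11) and Alb (-0.060) in tumour-type hepatocytes, Hp in monocyte-like cells (-0.056) and Lcn2 in neutrophil-like cells (-0.84). With cells of at least 5000 UMIs Scarb1 (-0.0071) and tumour-type Fgb (-0.046) turned, taken cell by cell Tfr2 (0.74) and Lrp1 (-0.046), and with the replicate block tumour-type Saa2 (0.32) and neutrophil-like Lcn2 (-0.33; -0.063 by DESeq2). Over leaving out 1 library at a time, log2 fold changes that crossed 0 ranged from -0.17 to 0.72 for Lrp1 in hepatocytes, in tumour-type hepatocytes from -0.97 to 1.36 for Saa2, -0.12 to 0.44 for Saa3, -0.29 to 0.78 for Orm1 and -0.034 to 0.24 for Fgb, and elsewhere from -3.51 to 0.042 for Alb in T-like cells, -0.067 to 0.42 for Hp and -0.13 to 4.35 for Saa3 in monocyte-like cells, and -0.83 to 0.61 for Lcn2 in neutrophil-like cells. With a summed reference of 7 liver genes in place of Alb, 6 pairs of member and class passed 5 times the empty barcodes. Alternatives that leave out both libraries numbered 2 in classes other than all hepatocytes, weight cells equally, or set depth limits in the contrast of the 2 hepatocyte classes were chosen after seeing the data. Mice as units were not run: in the libraries numbered 3 69.7 and 78.8% of tumour-type hepatocytes carried hashtags within 0.5 log2 of the ratio in empty barcodes.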
